A study of Mus musculus with 27 samples.

Results

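The clustered protocadherins are 58 genes of the RNA-Seq table of whole E8.5 mouse embryos, out of 24065 genes in all. They were chosen by symbol alone, as every row named Pcdha, Pcdhb, Pcdhga, Pcdhgb or Pcdhgc with a member number, together with Pcdhac1 and Pcdhac2. The alpha cluster holds 14 of them, the beta cluster 22 and the gamma cluster 22. In the mm10 genome the alpha genes lie at chr18:36930285-37188897, the beta genes at chr18:37264998-37521419 and the gamma genes at chr18:37661775-37841873, all on the plus strand. Another 3 rows, Pcdha4-g, Pcdha6-g and Pcdha7-g, are annotated as loci that join an alpha exon to the end of the gamma cluster, and they were kept apart.

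Clustered protocadherins are adhesion proteins of the cell surface that bind the same isoform on a neighbouring cell, and neurons use their combinations to tell their own branches from those of other cells. Each alpha or gamma isoform starts at a promoter and a large variable exon of its own, which encodes the extracellular and transmembrane part and is spliced to constant exons shared by the whole cluster. The beta genes have a single exon and no constant part. In neurons most isoforms are switched on promoter by promoter in a random choice that involves the insulator protein CTCF, cohesin and DNA methylation, and DNMT3B is known to methylate these promoters in the early embryo. The C-type isoforms (Pcdhac1, Pcdhac2, Pcdhgc3, Pcdhgc4 and Pcdhgc5) sit at the ends of the alpha and gamma clusters and differ from the others in sequence and regulation.

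The comparison asked whether the loss of DNMT3B changes these transcripts at E8.5. It used 3 WT and 3 Dnmt3b-/- littermates of strain C57BL/6J, with 1 whole embryo in each library. The Dnmt3b-/- embryos came from matings of heterozygous mice whose 2lox allele had been deleted with ACTB-Cre, a Cre line active in the whole body, so that the enzyme is inactive in every tissue rather than in 1 cell type. Nothing else distinguished the genotypes in the labels, which name no other allele or treatment for either group. Whether the embryos still carried the Cre transgene is not stated. The counts on genes came to between 41489332 and 58470286 per embryo. Dnmt3b itself had 9197, 12195 and 7120 raw counts in WT and 4068, 3904 and 4196 in Dnmt3b-/- embryos (log2 fold change -1.04 ± 0.27 SE, adjusted p = 0.0169, edgeR), and without WT embryo 2 the log2 fold change was -0.61 (adjusted p = 0.0026). The deletion takes out catalytic exons only, so that a transcript can still be counted. Neural, mesoderm and blood markers, each taken as a set, were found in every embryo. Of the 8 markers of trophoblast and decidua, 4 (Prl3d1, Prl8a2, Tpbpa and Prl2c2) had 0 counts in all 6. The rest of that list was counted, with raw counts of 130 to 294 for Dcn, 369 to 589 for Tfap2c and 0 to 17 for Gcm1. Hand1, which is on the mesoderm list too, had 467 to 873. WT embryo 2 stood apart. Its summed normalized count over 8 yolk sac endoderm markers was 178900 against 11280 to 56760 in the other embryos, its sum over 12 neural progenitor markers was 14110 against 19290 to 21430, and its sum over 8 neural crest markers was 5266 against 8992 to 9343. The sum over 8 erythroid markers was 12240 in WT embryo 2 and 15340 in Dnmt3b-/- embryo 3, against 33230 to 67830 in the other embryos. Among these markers Epor had 0 counts in Dnmt3b-/- embryo 3. In RNA from whole embryos, fewer cells of a type and less RNA per cell cannot be told apart.

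A read can be given to 1 isoform only where that isoform has exon positions in the genome that no other gene shares. In the RefSeq annotation of GRCm38 this was the first exon alone for 11 of the 14 alpha genes and for all 22 gamma genes, and the whole gene for all 22 beta genes. The unique part made up 54.2 to 77.3% of the exon length in the gamma cluster. Reads on the shared constant exons at the 3' end may therefore be uncounted, and a row does not hold all the transcripts of the cluster. Unique is meant here by position, and the loss of reads that match several genes of similar sequence was not examined. The first exons of Pcdha4, Pcdha6 and Pcdha7 are shared almost whole with the fused loci, so that 0 bp, 6 bp and 0 bp of them are unique, and a count of 0 there cannot be read as silence.

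Alpha isoforms were nearly absent in both genotypes, apart from the C-type isoform Pcdhac2. A member was taken as detected in a genotype when it had at least 10 raw counts in each of its 3 embryos. By this rule 1 of 14 alpha members (7.14%) was detected in WT and 0 of 14 in Dnmt3b-/- embryos, beside 60.2% and 58.3% of all genes in the table. In all, 10 members had 0 counts in every embryo, which allows up to 3 counts in each, or 2.37 to 3.49 normalized counts at these depths. These 10 include Pcdha4, Pcdha6 and Pcdha7, whose reads may have been left uncounted. The limit covers counting error only. The WT reads outside Pcdhac2 were 2 on Pcdha11 in embryo 1 and 1 on Pcdha12 in embryo 2, and the only such Dnmt3b-/- read was 1 on Pcdhac1 in embryo 1. Pcdhac1 is the other C-type isoform of the cluster, so that the C-type isoforms of the alpha cluster were far apart in level.

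Pcdhac2 had 46.6, 42.3 and 38.8 normalized counts in WT and 41, 37.2 and 10.2 in Dnmt3b-/- embryos. The genotypes overlapped, and a single Dnmt3b-/- embryo, number 3, was low, with 9 raw counts. The log2 fold change was -0.53 ± 0.52 (SE, adjusted p = 0.465, edgeR), and -0.11 without that embryo. Without it the number of alpha members detected in Dnmt3b-/- embryos is 1 as well. As the only alpha member with a mean of at least 10 counts, Pcdhac2 was also the only one tested, so that 0 of 1 tested members was higher and 0 lower. Its WT level per kilobase of unique exon was 0.311 ± 0.0285 FPKM (SD, n = 3). FPKM here means the count scaled to a library of 1000000 counts (CPM, here with TMM), divided by the kilobases of unique exon.

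**Figure D1:**
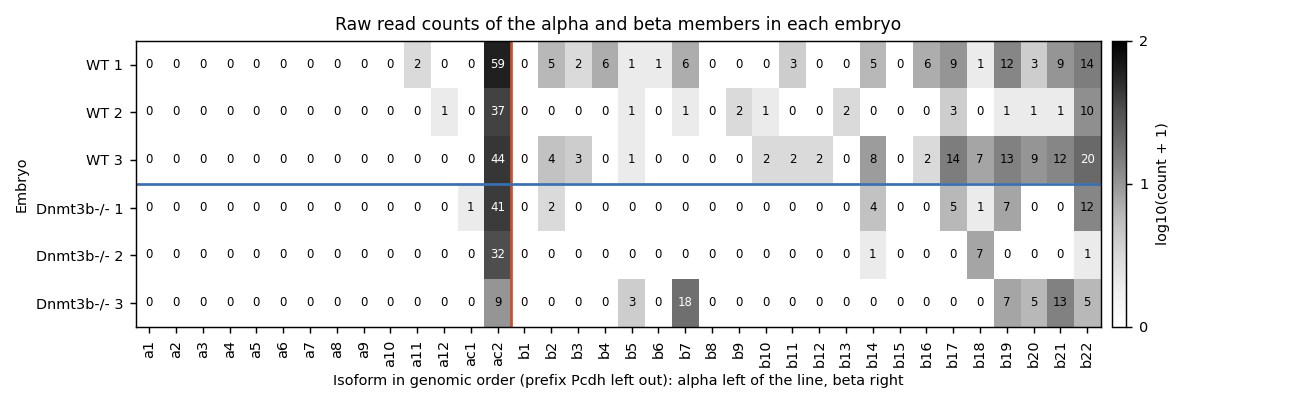
Raw read counts of the 14 alpha and 22 beta members (columns, in genomic order) in each embryo (rows), with the count printed in each cell and the shade giving log10(count + 1). Alpha counts outside Pcdhac2 are at most 2 in any embryo, and beta counts reach 20 in Pcdhb22.

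Beta genes were read at the level of single counts. Detected members were 1 of 22 in WT (4.55%, Pcdhb22) and 0 of 22 in Dnmt3b-/- embryos. Over all 6 embryos, 3 genes (Pcdhb1, Pcdhb8 and Pcdhb15) had 0 counts throughout, 11 never had more than 3 counts, and the highest count of the cluster in any embryo was 20. Since beta genes are unique in position over their whole length, shared exons do not bear on these values. Whether reads that match more than 1 beta gene were lost was not tested. The summed raw counts of the 22 genes were 83, 23 and 99 in WT and 31, 9 and 51 in Dnmt3b-/- embryos, or 1.42, 0.554 and 1.88 against 0.649, 0.212 and 1.13 CPM of the library total. The sums overlapped between the genotypes because WT embryo 2 was as low as the Dnmt3b-/- embryos. At least 1 count was found for 15, 10 and 14 beta genes in WT and for 6, 3 and 6 in Dnmt3b-/- embryos. These numbers do not overlap, and neither do those over the whole table at the same limit, which were 75.2, 73.2 and 74.6% of all genes in WT and 71.8, 68.8 and 66.6% in Dnmt3b-/- embryos. They rest on genes of 1 or a few counts, and with more than 3 counts required they were 9, 1 and 8 against 4, 1 and 5.

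Pcdhb22, the last gene of the beta cluster, was the most abundant member. It had 11.1, 11.4 and 17.6 normalized counts in WT and 12, 1.16 and 5.65 in Dnmt3b-/- embryos. Dnmt3b-/- embryo 1 lay within the WT range and the other two below it. The log2 fold change was -1.05 ± 0.75 (SE, adjusted p = 0.305, edgeR), and it was -1.92 without Dnmt3b-/- embryo 1 and -0.59 without Dnmt3b-/- embryo 2. No other beta gene had enough counts to be tested. Pcdhb19 came next, with 12, 1 and 13 raw counts in WT and 7, 0 and 7 in Dnmt3b-/- embryos. Pcdhb21, the third, had 9, 1 and 12 against 0, 0 and 13. Both were present or absent from embryo to embryo within a genotype, and their ranges overlapped. The highest beta count of any Dnmt3b-/- embryo was 18, on Pcdhb7 in embryo 3, where the other Dnmt3b-/- embryos had 0. Without WT embryo 2 the number of beta genes detected in WT is 2 in place of 1.

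Gamma isoforms, by contrast, were expressed almost without exception. Detected members were 21 of 22 in WT (95.5%) and 20 of 22 in Dnmt3b-/- embryos (90.9%), and every gamma member had more than 3 counts in every embryo. The members that missed the rule were Pcdhgb8, which RefSeq lists as a transcribed pseudogene, in both genotypes, and Pcdhgc5 in Dnmt3b-/- embryos, where embryo 2 had 7 raw counts. The normalized counts of the cluster summed to 4307, 3088 and 3902 in WT and to 3393, 3379 and 3655 in Dnmt3b-/- embryos. The WT range enclosed all 3 Dnmt3b-/- values.

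A single isoform, Pcdhgc3, dominated these sums. This C-type isoform, at chr18:37806410-37841873, had 2409, 1569 and 2105 normalized counts in WT and 1588, 1674 and 1585 in Dnmt3b-/- embryos. It made up 53.6 ± 2.58% of all gamma counts in WT and 46.6 ± 3.1% in Dnmt3b-/- embryos (SD, n = 3 each). Its WT level of 16.5 ± 3.45 FPKM (SD, n = 3) was 22.4 times the median of the 19 gamma A and gamma B members and stood at percentile 81.8 of the 22550 genes with at least 200 bp of unique exon. The 19 gamma A and gamma B members ranged in WT from 0.109 FPKM for Pcdhgb8 to 1.29 FPKM, with a median of 0.734, beside a median of 1.07 FPKM over all those genes. Pcdhga11 and Pcdhga3, among the highest, reached 1.26 ± 0.194 and 1.20 ± 0.247 FPKM (SD, n = 3). In the order of WT normalized counts, 17 of the 21 pairs of neighbours differed by no more than the larger SD of the pair, so that the order within the family is mostly unresolved. The steps that exceeded it were those below Pcdhgc3, Pcdhgb4, Pcdhga12 and Pcdhgc5.

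**Figure D2:**
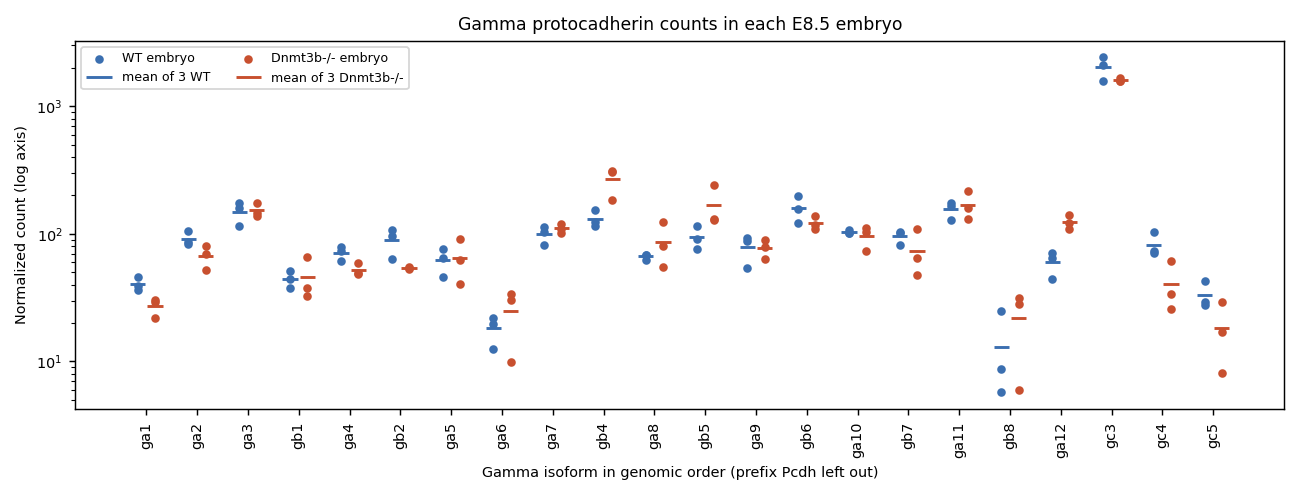
Normalized counts (log axis) of the 22 gamma isoforms in genomic order in each WT (blue) and Dnmt3b-/- (red) embryo, with a line at each mean of 3. Pcdhgc3 lies at 1569 to 2409, far above the rest, and all Dnmt3b-/- points lie above all WT points for Pcdhgb4, Pcdhgb5 and Pcdhga12.

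Of the 22 gamma members, all of which could be tested, 2 rose in Dnmt3b-/- embryos, Pcdhgb4 and Pcdhga12, and 0 fell (edgeR, adjusted p below 0.05). That is 9.09% higher, against 17.6% of the 15114 genes tested that were higher and 18.1% that were lower. Both members also exceeded a 2-fold change, a limit passed by 2.12% of all tested genes in the upward and 3.78% in the downward direction. At an unadjusted p below 0.05 there were 3 higher and 2 lower gamma members. The median log2 fold change over the 22 members was 0.0047, with 11 of them above 0, beside -0.0287 over all tested genes. Outside Pcdhgc3 the gamma log2 fold changes had standard errors of 0.241 to 0.769, which limits the calls that could be made. At the adjusted p alone the share of gamma members called was below that of the whole table in both directions, and with the 2-fold limit the upward share, 2 of 22, was above it. That share rests on 2 folds close to the limit. Over 12 alternative fits the log2 fold change ran from 0.903 to 1.23 for Pcdhgb4 and from 0.862 to 1.26 for Pcdhga12, on both sides of 2-fold. Scaled by total counts, both were under it (0.943 and 0.948).

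Pcdhgb4, a gamma B isoform at chr18:37720376-37841870, had 154, 116 and 124 normalized counts in WT and 313, 185 and 303 in Dnmt3b-/- embryos. All Dnmt3b-/- embryos lay above all WT embryos, and embryo 2 was the nearest to them. The rise was 2.03-fold (log2 fold change 1.02 ± 0.26 SE, adjusted p = 0.0160, edgeR). It kept an adjusted p below 0.05 in 11 of 12 alternative fits and lost it without WT embryo 3 (adjusted p = 0.0502). In Dnmt3b-/- embryos Pcdhgb4 became the most abundant gamma isoform after Pcdhgc3.

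Pcdhga12, the last gamma A isoform before the C-type genes, at chr18:37765580-37841873, had 71.1, 44.6 and 64.4 normalized counts in WT and 109, 121 and 140 in Dnmt3b-/- embryos. The genotypes did not overlap. The rise was 2.04-fold (log2 fold change 1.03 ± 0.28 SE, adjusted p = 0.0230, edgeR). It lay close to the limit of the test, with an adjusted p below 0.05 in 7 of 12 alternative fits and a range of 0.0075 to 0.0603. Leaving out WT embryo 1 or 3 or Dnmt3b-/- embryo 2 or 3 ended the call, at adjusted p = 0.05, 0.0587, 0.0603 and 0.0534. Without WT embryo 2, the embryo with the high yolk sac markers, Pcdhga12 and Pcdhgb4 still passed, with log2 fold changes of 0.86 and 0.94.

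The third isoform that was higher without overlap was Pcdhgb5, the next gamma B promoter after Pcdhgb4. It had 114, 75.5 and 91.7 normalized counts in WT and 130, 129 and 243 in Dnmt3b-/- embryos. Much of its difference came from Dnmt3b-/- embryo 3, and its log2 fold change of 0.83 ± 0.32 (SE) missed the limit (adjusted p = 0.0784, edgeR), which it passed with DESeq2 (adjusted p = 0.0476). In all, 3 gamma members were higher without overlap (13.6%, against 25.3% of all tested genes). The 5 members that were lower without overlap (22.7%, against 26.5%) were Pcdhga1, Pcdhga2, Pcdhga4, Pcdhgb2 and Pcdhgc4. Their log2 fold changes ran from -0.44 to -1.03 and none passed the test.

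Of the 5 C-type isoforms 4 could be tested, and none passed, beside 17.6% of all tested genes that were higher and 18.1% that were lower. Pcdhac1 had too few counts. Pcdhgc4, the C-type isoform that mice need for the survival of interneurons, had 73.4, 103 and 70.6 normalized counts in WT and 26.0, 33.7 and 61.0 in Dnmt3b-/- embryos. The genotypes did not overlap, and Dnmt3b-/- embryo 3 was the closest to WT. The log2 fold change was -1.03 ± 0.40 (SE, adjusted p = 0.0763, edgeR), and without that embryo it was -1.45 (adjusted p = 0.0245). Pcdhgc3, for which the values are given above, had a log2 fold change of -0.33 ± 0.15 (SE, adjusted p = 0.121). In WT embryo 2 it was as low as in Dnmt3b-/- embryos, and without WT embryo 2 it fell by 0.483 on the log2 scale (adjusted p = 0.0070, edgeR). With a trend on GC content and exon length removed from each library, the same log2 fold change was 0.03 (adjusted p = 0.901), so that no direction can be given for Pcdhgc3. That trend used the GC content and length of all annotated exons of a gene, the shared constant exons included. The first exon of Pcdhgc3 alone has a GC content of 56.8%, the highest of the family. Pcdhgc5 had 27.6, 42.3 and 29.1 normalized counts in WT and 17, 8.14 and 29.4 in Dnmt3b-/- embryos, which overlapped (log2 fold change -0.85 ± 0.54 SE, adjusted p = 0.253).

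**Figure D3:**
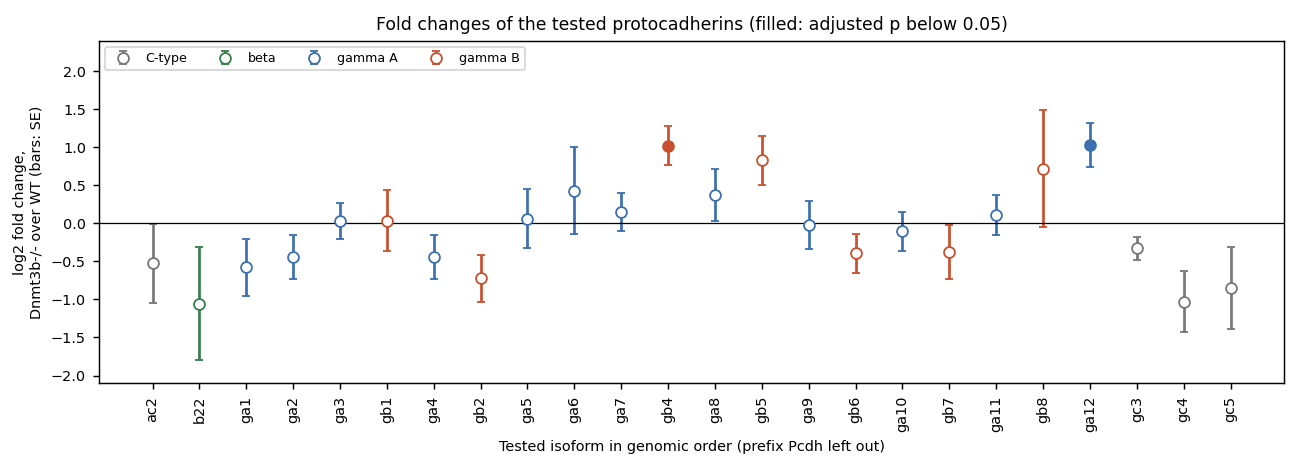
Log2 fold change between the genotypes (above 0, higher in Dnmt3b-/-), with its standard error, for the 24 members with a mean of at least 10 counts, in genomic order and coloured by isoform class. Filled symbols mark Pcdhgb4 and Pcdhga12, at 1.02 and 1.03, the members with an adjusted p below 0.05.

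Gamma A and gamma B isoforms had medians close to each other. The 12 gamma A members had a median log2 fold change of 0.05 with 1 higher and 0 lower, and the 7 gamma B members had a median of 0.04 with 1 higher and 0 lower. Over all tested genes 17.6% were higher and 18.1% lower, so that 1 call in so few genes is not out of the ordinary. The gamma B values were more spread, with quartiles of -0.39 and 0.77 against -0.19 and 0.21 for gamma A. Position in the cluster went with the fold change to some extent, with Pearson's r = 0.491 and Spearman's rho = 0.493 across the 19 gamma A and gamma B genes. This is a description, since the genes share the same 6 libraries and are not independent. The C-type genes at the downstream end, which had the lowest gamma values at Pcdhgc4 and Pcdhgc5, are not part of it.

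The make-up of the gamma A and gamma B counts was also examined, since this measure does not depend on how the libraries are scaled. Their 19 genes together had 1797, 1373 and 1697 normalized counts in WT and 1762, 1663 and 1980 in Dnmt3b-/- embryos. Within that sum the share of Pcdhgb4 was 8.10 ± 0.676% in WT and 14.7 ± 3.35% in Dnmt3b-/- embryos, and that of Pcdhga12 3.67 ± 0.369% and 6.84 ± 0.582% (SD, n = 3 each). In all, 3 of the 19 shares were higher without overlap (Pcdhgb4, Pcdhgb5 and Pcdhga12) and 5 were lower (Pcdhga1, Pcdhga2, Pcdhga4, Pcdhgb2 and Pcdhgb6). Separation of this kind was common in the whole table. In normalized counts, 25.3% of all tested genes were higher without overlap and 26.5% lower. Among the lower ones were those of Pcdhga4 (4.40 ± 0.282% and 2.93 ± 0.417%) and Pcdhgb2 (5.41 ± 0.883% and 3.01 ± 0.306%). Pcdhga3 had a share of 9.10 ± 0.680% and 8.45 ± 0.594%, with overlap. Shares in 1 sum depend on each other and were not tested.

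**Figure D4:**
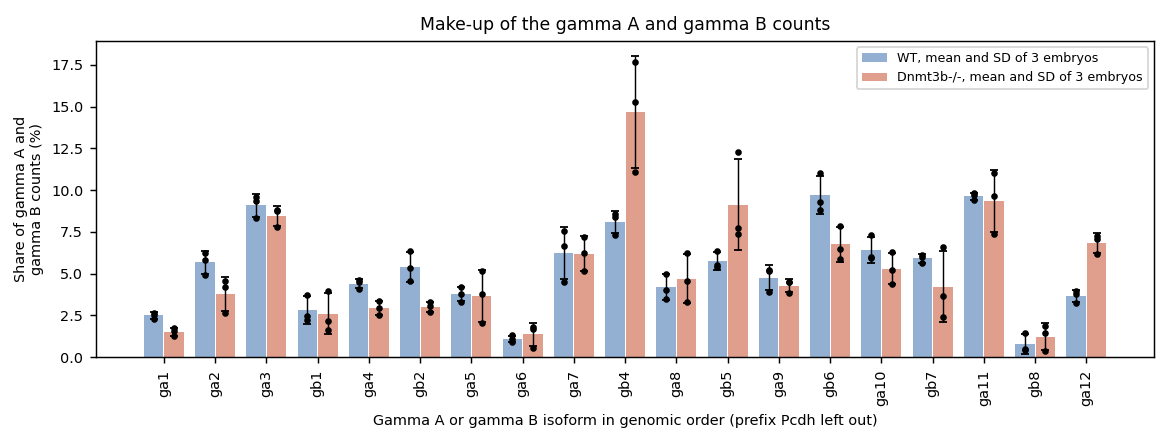
Share of each gamma A or gamma B isoform in the summed counts of these 19 genes, as the mean and SD of 3 embryos per genotype with a point for each embryo. Pcdhgb4 takes 8.10% in WT and 14.7% in Dnmt3b-/- embryos, and Pcdhga12 3.67% and 6.84%.

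Some members carry a region that the study listed as methylated in embryos, and only membership of these lists was used. The list of methylated promoter CpG islands names 8 members, of which Pcdha5, Pcdha8, Pcdhac1 and Pcdhb1 had at most 1 count in any embryo of either genotype. The others, Pcdhga1, Pcdhga3, Pcdhgb2 and Pcdhga10, were tested, and their log2 fold changes were -0.57, 0.03, -0.72 and -0.10, with 0 higher and 0 lower. Over all tested genes 17.6% were higher and 18.1% lower, so that few calls could be looked for among these members. The list of regions that depend on DNMT3B for methylation was matched by the genes it names at exons, and names 10 members there. Of the 7 beta genes on it (Pcdhb1, Pcdhb2, Pcdhb3, Pcdhb15, Pcdhb16, Pcdhb17 and Pcdhb20) none had enough counts for a test. Pcdhb17 had the most WT reads of them, 9, 3 and 14 raw counts against 5, 0 and 0 in Dnmt3b-/- embryos. The gamma members Pcdhga3, Pcdhga4 and Pcdhga7 had log2 fold changes of 0.03, -0.44 and 0.15 and did not pass. Neither Pcdhgb4 nor Pcdhga12 is named on the promoter list or at an exon on the region list. Regions outside exons were not matched to members. A member that is not listed may not have been covered by the methylation assay.

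CpG content did not sort silent from expressed isoforms. CpG observed over expected is the number of CpG sites divided by that expected from the base content. It was 0.604 to 0.756 in the first exons of the 9 alpha isoforms outside the C-type that share none of it and 0.572 to 0.781 in those of the 7 gamma B isoforms, although the former had at most 2 counts and the latter up to 313 in 1 embryo. The gamma A first exons had a median of 0.468 and the beta genes one of 0.417. In the 300 bp around the start site, Pcdhac2 has 25 CpG sites and Pcdhac1 has 21, while their counts in the 6 embryos were 9 to 59 and 0 to 1. Pcdhgc3, the most abundant member, has 26 CpG sites there, and Pcdhga12, which rose, has 0. The window is set by the annotated start. The annotated first exon of Pcdhga12 is 2961 bp long, against 2541 to 2611 bp in the other gamma A genes. Its window may therefore not match theirs in position. Across the 19 gamma A and gamma B genes the CpG ratio of the first exon and the log2 fold change had Pearson's r = 0.328 and Spearman's rho = 0.253, again as a description.

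**Figure D5:**
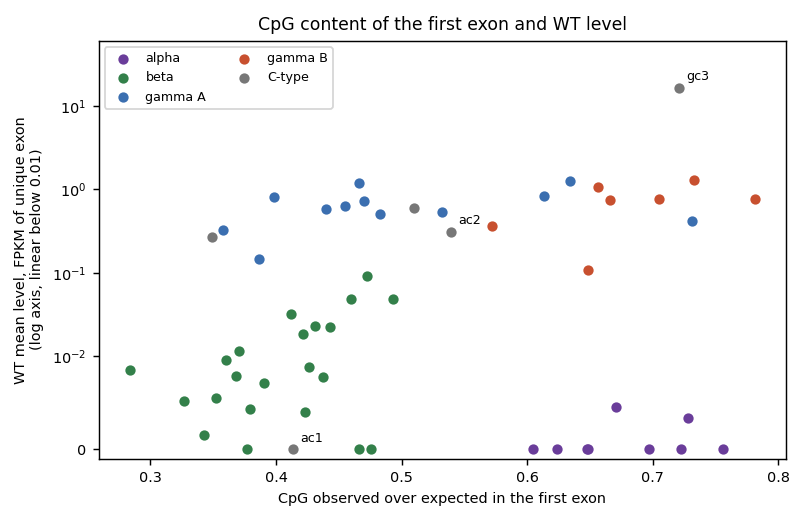
WT mean level in FPKM of unique exon (log axis, linear below 0.01) against the CpG observed over expected ratio of the first exon, for the 55 members whose first exon is not shared, coloured by class. Alpha and gamma B isoforms cover the same range of CpG ratio, with alpha at or near 0 and gamma B between 0.109 and 1.29 FPKM.

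Genes listed here as regulators of the clusters had counts in all embryos, with Ctcfl the lowest at 11 to 51 raw counts. The part of each in promoter choice was not tested. Of 20 such regulators, 10 were higher and 2 lower in Dnmt3b-/- embryos (median log2 fold change 0.31), beside 17.6% higher, 18.1% lower and a median of -0.0287 over all tested genes. Dnmt3b itself is 1 of the 2 lower genes and was the only regulator called with a change over 2-fold. Those that rose include the cohesin subunits Smc1a and Smc3 (log2 fold changes 0.71 and 0.80, adjusted p = 0.0016 and 0.0017, edgeR), the cohesin loader Nipbl (0.36), the cohesin release factor gene Wapal (0.49) and Smchd1, which keeps clustered protocadherins repressed (0.33, adjusted p = 0.0078). Of the other cohesin subunits listed, Stag2 rose (0.32, adjusted p = 0.0394). Rad21 (0.14, adjusted p = 0.154) and Stag1 (0.04, adjusted p = 0.629) did not pass. The insulator gene Ctcf had 10800 ± 229 normalized counts in WT and 11280 ± 596 in Dnmt3b-/- embryos (SD, n = 3 each, adjusted p = 0.509). Trim28, a corepressor gene, fell by 0.393 on the log2 scale (adjusted p = 0.0033).

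Protocadherins outside the clusters were compared as the nearest relatives. All 11 were tested, with 0 higher, 0 lower and a median log2 fold change of -0.09. Per kilobase of unique exon, Pcdh18 was the highest of them, at 13.8 ± 1.28 FPKM in WT (SD, n = 3), which differs from the 16.5 ± 3.45 FPKM of Pcdhgc3 by less than the spread of the latter. Of the 16 classical cadherins tested, 2 rose (Cdh2, 0.43, and Cdh11, 0.43 on the log2 scale) and 1 fell (Cdh24, -0.97), and none of these 3 changed by 2-fold. These shares do not exceed the 17.6% and 18.1% of all tested genes. Neuron markers, which mark the cells best known for the alpha and beta isoforms, were present at 3574 to 4093 summed normalized counts in WT and 4184 to 5789 in Dnmt3b-/- embryos over 12 genes. Map2, Stmn2, Tubb3 and Isl1 made up most of the WT sums, with means of 912, 858, 804 and 698. Dcx, Neurod1, Neurog1 and Neurod4 were low, with WT means of 19.9, 6.07, 20.7 and 19.1. Of the 12 neuron markers 2 were higher and 0 lower, beside 17.6% and 18.1% of all tested genes. Their part in the gamma differences was not tested.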

How the data were processed

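RNA-Seq libraries of 3 WT and 3 Dnmt3b-/- E8.5 embryos were analysed. Per the labels and methods, the authors aligned stranded total RNA reads to mm10 with TopHat2 2.0.12 and deposited raw counts in RefSeq exons from HTSeq 0.6.0. The RefSeq release, overlap mode and strand setting are not given in the sources used here. The 6 columns of normalized counts and the columns holding the authors' log2 fold change and adjusted p-value were not used. Methylation libraries were not analysed here.

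Counts were TMM normalized (normalized counts are scaled to the mean library) and the 15114 genes that averaged 10 counts or more went into edgeR's quasi-likelihood test (edgeR 4.0.16, R 4.3.3), two-sided, with Benjamini-Hochberg adjustment over all of them. Replicates are littermates, so p-values measure the spread between embryos. Unique exon, GC and CpG content came from the RefSeq annotation of GRCm38.p6 (99.2% of genes had an exon length). Scripts were tested on simulated data. Named members are those that passed, the 3 most abundant of each cluster, the C-type isoforms and members on the study's methylation lists. Pcdhb7, Pcdhb8, Pcdhga2, Pcdhgb5, Pcdhgb6 and Pcdhgb8 fall outside this rule and were chosen after seeing their values, and Pcdha4, Pcdha6 and Pcdha7 are named outside it for their shared exons. Members and lists were chosen with earlier results of these data known. Alternatives were no filter, DESeq2 size factors, total counts, DESeq2 1.42.0, a replicate block, GC content and length (natural splines, 5 degrees of freedom each), each embryo left out, and other detection limits.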

Additional observations from a re-analysis of the deposited data

How the results depend on the processing

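The number of gamma members that were higher, 2, was 1 with the replicate block and 0 to 2 with single embryos left out, at 0 without WT embryo 3. The number that were lower, 0, was 0 to 1 with single embryos left out, at 1 without WT embryo 2 (Pcdhgc3) and without Dnmt3b-/- embryo 3 (Pcdhgc4). At the adjusted p limit both counts stayed within 1.5 times under the other scalings, DESeq2 and no filter. They also did with the 2-fold limit added to the main fit, and that limit was not combined with the other fits. Detected alpha members in Dnmt3b-/- embryos, 0, were 1 with a limit of 1 count or of more than 3 counts, and 0 to 1 with embryos left out. Detected beta members with a limit of 1 count were 6 in WT and 1 in Dnmt3b-/- embryos, and 1 to 2 in WT with embryos left out. The fall of Dnmt3b was -0.852 on the log2 scale with GC content and length removed (adjusted p = 0.0605) and lay between -1.25 and -0.607 with embryos left out, where it missed the threshold without any of the Dnmt3b-/- embryos (adjusted p = 0.0555 to 0.0613). The cause was not tested. No sign of pairing by replicate number was seen. The deviations of same-numbered embryos correlated at -0.0492, -0.147 and -0.013, and those of differently numbered embryos at -0.0832 to 0.135. With 3 embryos in each genotype this check cannot exclude pairing. The replicate block left Pcdhgb4 at an adjusted p of 0.0234 and Pcdhga12 at 0.0548 (edgeR). The gamma median log2 fold change lay between -0.121 and 0.17 over all alternatives. Depth limits the alpha and beta clusters, where 1 member each could be tested, and Pcdhb22 fell below the count filter without WT embryo 1 or 3.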

Other observations

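Genes of the proteins that relay protocadherin signals in the cell, and genes that flank the clusters on the chromosome, were also read. Of 14 signalling partners, 5 were higher and 2 lower in Dnmt3b-/- embryos (median log2 fold change 0.18, edgeR), beside 17.6% and 18.1% of all tested genes. Abi1 and Nckap1, subunits of the WAVE complex that drives actin branching, rose by 0.67 and 0.37 on the log2 scale, Fyn, a Src family kinase, by 0.26, and Marcks, an actin regulator that acts downstream of gamma protocadherins, by 0.52. Brk1, another WAVE subunit, fell by 1.12 on the log2 scale (adjusted p = 0.0009), and Axin1, a Wnt pathway scaffold that binds Pcdhgc3, fell by 0.525.

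Among 20 tested neighbours on chromosome 18, 5 were higher and 2 lower (median log2 fold change -0.25), beside the same 17.6% and 18.1% of all tested genes. Taf7, a subunit of the general transcription factor TFIID whose gene lies between the beta and gamma clusters, rose by 0.62 on the log2 scale (adjusted p = 0.0113). Zmat2, a splicing factor gene on the alpha side, rose by 0.95 (adjusted p = 0.0015). Slc25a2, a mitochondrial carrier gene, had 24.1 ± 3.17 normalized counts in WT and 9.63 ± 3.30 in Dnmt3b-/- embryos (SD, n = 3 each, adjusted p = 0.0734).

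The fused loci Pcdha4-g, Pcdha6-g and Pcdha7-g had 0, 0 and 1 counts over the 6 embryos, with 41, 0 and 9 bp of unique exon.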
